A study of Gallus gallus and Dromaius novaehollandiae with 14 samples.

Results

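A set of 80 genes was higher in feather than in scutate scale epidermis of the chicken and higher in scutate scale than in feather epidermis of the emu. The members were selected on their measured values in the 8 feather and scutate scale libraries, from 8751 genes quantified in both birds. Values were length-normalised transcript abundances (TPM), and differences were taken on the log2(TPM + 1) scale, which understates the change of genes with low values. For each gene the chicken gap was the lower of the 2 feather libraries minus the higher of the 2 scutate scale libraries. The emu gap was the lower of the 2 scutate scale libraries minus the higher of the 2 feather libraries. A gene had to reach a TPM of 5 in both chicken feather libraries and both emu scutate scale libraries, as 5175 genes did. Both gaps were above 0 in 317 of these genes (6.13%), and the 80 with the largest smaller gap are the members, numbered by rank from 1.

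Feathers, scutate scales, reticulate scales and claws are the main skin appendages of birds. Feathers cover most of the body, scutate scales are the large overlapping plates on the front of the foot, reticulate scales are the small tubercles of its underside, and claws sheathe the toe tips. Feathers and scutate scales each start from epidermal placodes, thickenings whose spacing and growth depend on signals passed between epidermis and dermis, Wnt, ectodysplasin, fibroblast growth factor, bone morphogenetic protein and Hedgehog ligands among them. The emu is a flightless ratite, a lineage that parted from that of the chicken near the base of living birds.

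The study sequenced epidermal RNA from 14 embryonic samples in 8 groups of species and appendage. Each chicken appendage had 2 libraries, as did emu feather and emu scutate scale, while emu reticulate scale and emu claw had 1 library each. In either bird feather tissue was of Hamburger-Hamilton stage 33 or 34, claw of stage 36, scutate scale of stage 37 and reticulate scale of stage 39. Chicken eggs were incubated at 37.8 °C and emu eggs at 35.5 °C. In all groups a protease, dispase, was used to separate the skin layers, for 13 h at 4 °C and 10 mg/mL. The labels give no other agent, no engineered allele and no strain, and do not say whether embryos were pooled. Stage therefore cannot be told apart from appendage, nor incubation temperature from species.

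The 6 emu libraries each summed to 550000 TPM over the listed genes. Their columns are labelled as scaled and those of the chicken are not, so differences between the birds also rest on this scaling. Chicken claw had the lowest totals, 500783 and 521547, and the other 6 chicken libraries lay between 537026 and 575133. From 685 to 1013 genes per library had a listed value of 0, and the read depth is unknown because no counts were used. Genes carried chicken Ensembl identifiers for both species and none of them could be paired with a symbol. Members are therefore given by rank, with few identifiers, and no gene role is stated. For the same reason the epidermal origin of the libraries was not checked against marker genes, and the 22 pathway and cell type lists drawn up for these data matched 0 identifiers and gave no values.

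**Figure D1:**
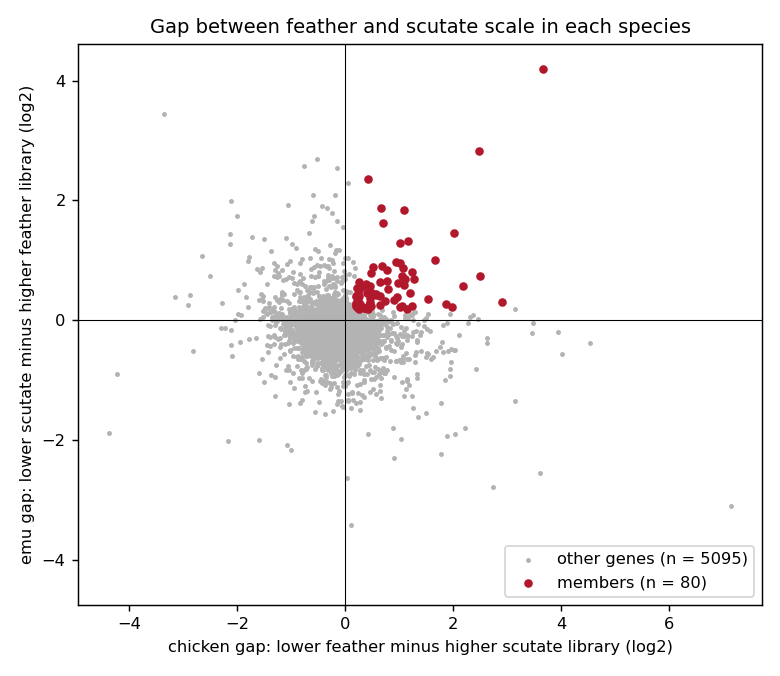
Gap between the nearest feather and scutate scale libraries in the chicken (x axis, feather minus scutate scale) and in the emu (y axis, scutate scale minus feather), both in log2 units. Each point is 1 of the 5175 genes that met the TPM minimum. Red points are the 80 members, all above 0 on both axes by construction; ranks 1 and 2, at 3.66 and 4.18 and at 2.47 and 2.82, lie above 2 on both axes.

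The member ranked 1 (ENSGALG00000006021) was near 0 in one of the 2 tissues and well above 10 TPM in the other, in opposite order in the 2 birds. In the chicken its levels were 20.0 and 18.0 TPM in feather and 0.355 and 0.508 TPM in scutate scale. In the emu they were 0.332 and 0.250 TPM in feather and 23.2 and 44.9 TPM in scutate scale. The groups were far apart in each species, with gaps of 3.66 in the chicken and 4.18 in the emu on the log2 scale. Chicken reticulate scale was listed at 0 in both libraries and chicken claw held 0.167 and 0.312 TPM. Emu reticulate scale was also low at 0.434 TPM, while the emu claw library held 6.30 TPM. Levels above 10 TPM of this gene were thus found in 1 appendage of each bird, and it was the only member listed at 0 in any library.

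The member ranked 2 (ENSGALG00000012893) had the same reversal between feather and scutate scale but was also present in claw. Its levels in the chicken were 8.71 and 8.84 TPM in feather against 0.675 and 0.752 TPM in scutate scale. In the emu they were 1.58 and 1.22 TPM in feather against 17.3 and 23.9 TPM in scutate scale. The gaps were 2.47 in the chicken and 2.82 in the emu. Claw reached 6.47 and 22.2 TPM in the chicken and 15.9 TPM in the emu. The 2 chicken reticulate scale libraries disagreed, at 6.04 and 0.887 TPM, and the emu reticulate scale library held 0.716 TPM.

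The member ranked 3 had 13.97 and 17.6 TPM in chicken feather and 2.72 and 2.02 TPM in chicken scutate scale. It had 0.869 and 1.83 TPM in emu feather and 6.79 and 8.29 TPM in emu scutate scale. Levels in claw again parted the species, at 0.675 and 0.630 TPM in the chicken and 7.22 TPM in the emu.

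Ranks 4 to 7 were above 1 TPM in every library. Rank 4 had 61.6 and 62.5 TPM in chicken feather and 16.8 and 27.1 TPM in chicken scutate scale. It had 18.1 and 14.8 TPM in emu feather and 46.9 and 51.6 TPM in emu scutate scale. Its reticulate scale and claw levels were all at 57.9 TPM or above, so the low values were those of chicken scutate scale and emu feather. Rank 7 (ENSGALG00000004043) had 305 and 329.7 TPM in chicken feather and 84.3 and 95.2 TPM in chicken scutate scale. It had 10.96 and 15.5 TPM in emu feather and 32.0 and 41.1 TPM in emu scutate scale. Every chicken library of rank 7, even the lowest scutate scale value, was above the emu scutate scale libraries, so the order of the 2 appendages was reversed while the chicken kept the higher level.

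In feather and scutate scale, rank 5 combined a high chicken level with a low emu one. It had 86.2 and 100.5 TPM in chicken feather, 39.9 and 21.4 TPM in chicken scutate scale, 3.02 and 2.54 TPM in emu feather and 13.3 and 13.8 TPM in emu scutate scale. Rank 6 was low in all groups of the chicken, at 8.21 and 8.19 TPM in feather and 3.55 and 3.23 TPM in scutate scale. In the emu it had 3.11 and 3.77 TPM in feather and 10.7 and 15.3 TPM in scutate scale. Emu claw held the highest emu level of both genes, 38.3 TPM for rank 5 and 43.2 TPM for rank 6. Chicken claw had 59.8 and 40.9 TPM of rank 5, so the birds were closer there.

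**Figure D2:**
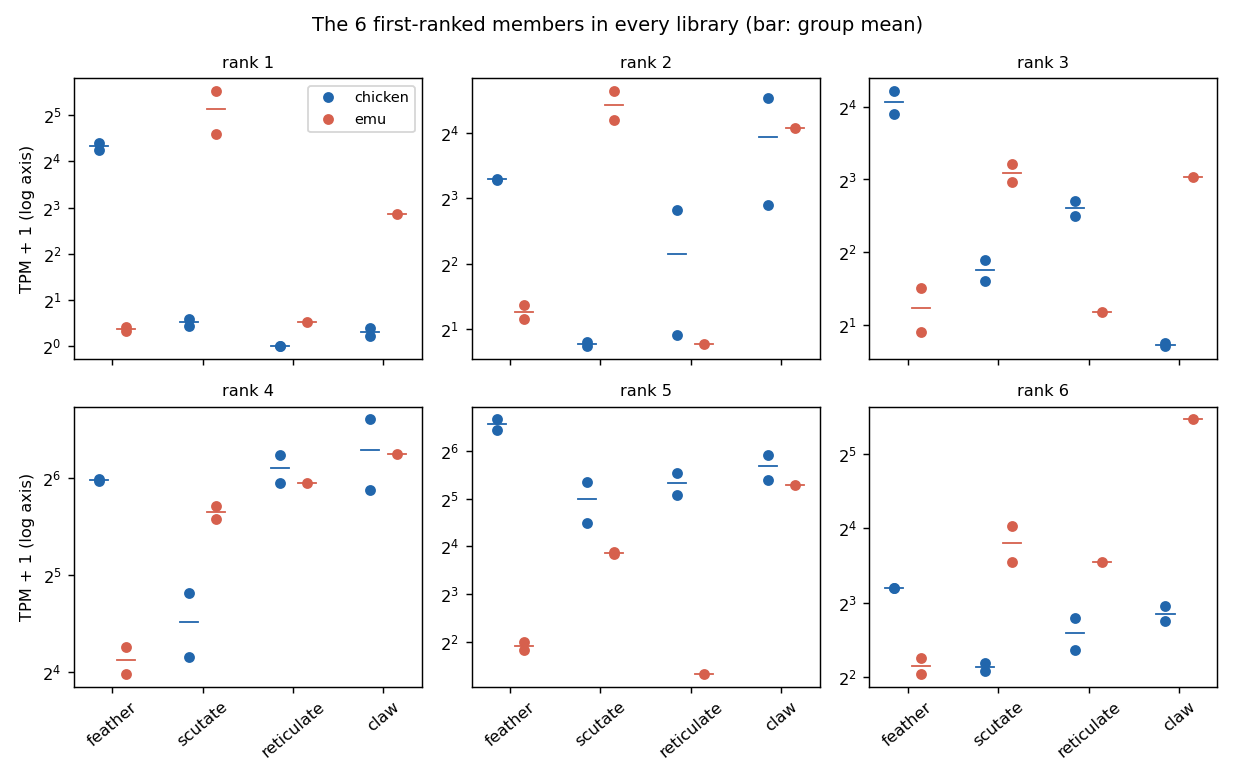
Levels of the members ranked 1 to 6 in each of the 14 libraries, as TPM + 1 on a log axis, with chicken in blue and emu in red and a short bar at each group mean. Feather points are above scutate scale points in the chicken and below them in the emu in all 6 panels, as the selection requires; reticulate scale and claw take different positions from gene to gene.

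Most of the set reversed by far less than these genes. Both gaps were at least 2-fold in 6 members and at least 1.5-fold in 23, leaving 57 whose smaller gap was under 1.5-fold. The gap was larger in the chicken for 45 members and larger in the emu for 35. At the limit of the set, ranks 79 and 80 had a smaller gap of 0.192 and 0.191, and the next genes outside it, ranks 81 and 82, had 0.186 and 0.182. Membership near rank 80 therefore turns on very small differences.

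The median difference between group means was 0.88 in the chicken (feather minus scutate scale, range 0.25 to 3.80) and 0.66 in the emu (scutate scale minus feather, range 0.23 to 4.69). The median level of the members was 25.1 TPM in chicken feather and 13.8 TPM in chicken scutate scale. In the emu it was 17.5 TPM in feather and 32.2 TPM in scutate scale. The corresponding medians over the 5175 genes that met the minimum were 36.1, 35.6, 38.5 and 37.6 TPM, so the members were as a group below the typical gene in each of these tissues. In bulk tissue, fewer cells of a type and less RNA per cell cannot be told apart in any of these differences.

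The most abundant member was rank 58, with 710.0 and 725 TPM in chicken feather and 602 and 573 TPM in chicken scutate scale. It had 625 and 622 TPM in emu feather and 791 and 738 TPM in emu scutate scale. Its reversal was small in both birds. That the libraries of the 2 appendages did not overlap is required of every member by the selection. A TPM of at least 1 in every library was reached by 67 members.

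Replicates differed by more than 2-fold in 5 members for chicken scutate scale, in 0 for chicken feather, and in 1 each for emu feather and emu scutate scale. They did so in 4 members for chicken reticulate scale and in 11 for chicken claw. An instance is rank 24, which had 6.89 and 55.0 TPM in the 2 chicken claw libraries and 17.01 and 17.5 TPM in the 2 chicken feather libraries. The selection disfavours genes whose feather or scutate scale replicates lie apart, and reticulate scale and claw replicates met no such filter. These counts were not taken over all genes, so they do not compare the quality of the groups.

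**Figure D3:**
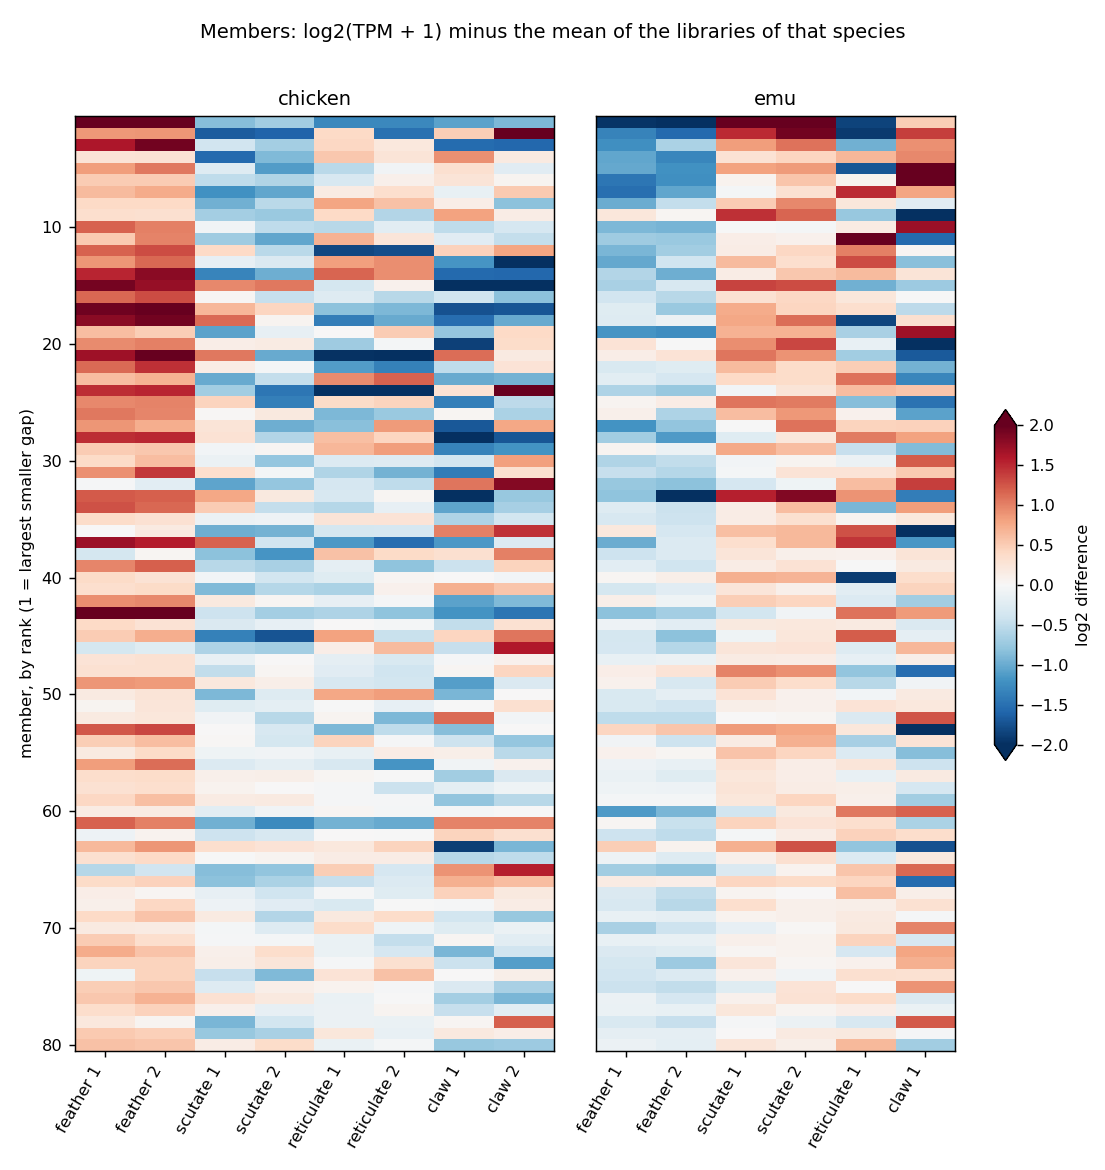
Levels of the 80 members (rows, by rank from 1 at the top) in each library (columns), as log2(TPM + 1) minus the mean of the libraries of the same species. Red is above and blue below that mean, and the colour scale ends at 2 in either direction. Chicken feather columns are redder than chicken scutate scale columns and emu scutate scale columns redder than emu feather columns by construction; reticulate scale and claw columns are mixed in both birds.

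The reticulate scale and claw libraries took no part in the selection, although positions relative to feather and scutate scale still rest on the libraries that did and are given as descriptions. In the chicken, feather had the highest group mean in 58 of the 80 members, claw in 17 and reticulate scale in 5. In the emu, scutate scale was highest in 34, reticulate scale in 23 and claw in 23. Among the other genes with a gap above 0 in the same species, chicken feather was highest in 80.4% and emu scutate scale in 28.8%, against 72.5% and 42.5% of the members. Chicken feather and emu scutate scale were both the highest appendage of their species in 30 members (37.5%), a share that was not taken over other genes.

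Library by library, both chicken feather libraries lay above every other chicken library in 49 members (61.3%). Among the 1958 other genes with a chicken gap above 0 this share was 63.3%. Both chicken scutate scale libraries lay below every other chicken library in 19 members (23.8%), and in 6.38% of those other genes. Both emu scutate scale libraries lay above every other emu library in 25 members (31.3%), against 23.2% of the 1306 other genes with an emu gap above 0. Both emu feather libraries lay below every other emu library in 37 members (46.3%), against 44.5%. The shares for chicken feather and emu feather were close to those of the other genes, and that for chicken scutate scale was the farthest from them. Here and above, the other genes needed only a gap above 0 and were not matched to the members in gap size. A larger gap by itself favours such extreme positions, so the shares are descriptions only.

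Combining the birds gave several shapes, whose counts were not taken over other genes and are descriptions only. In 19 members chicken feather and emu scutate scale were each above every other library of their species, rank 1 among them. In 13 members, rank 4 and rank 7 included, chicken scutate scale and emu feather were each below every other library. In 17 members a chicken feather maximum met an emu feather minimum. These sets overlap, as rank 1 is in the first and the last of them and rank 7 in the second and the last. Ranks 2 and 9 joined a chicken scutate scale minimum to an emu scutate scale maximum. Rank 9 had 5.90 and 5.85 TPM in chicken feather and 2.40 and 2.26 TPM in chicken scutate scale. It had 13.4 and 11.7 TPM in emu feather, 32.9 and 26.8 TPM in emu scutate scale, and 6.32 TPM in emu reticulate scale and 1.84 TPM in emu claw.

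Chicken reticulate scale lay nearer to scutate scale than to feather in 54 members (67.5%), and chicken claw was nearer to it in 54 as well. Among the other genes with a chicken gap above 0 the shares nearer to scutate scale were 82.1% for reticulate scale and 76.4% for claw. Emu reticulate scale was nearer to scutate scale in 48 members (60%) and emu claw in 46 (57.5%), against 70.4% and 46.9% of the other genes with an emu gap above 0. By group means, chicken reticulate scale was between feather and scutate scale in 37 members, below both in 33 and above both in 10 (46.3%, 41.3% and 12.5%). Chicken claw was between them in 21, below both in 42 and above both in 17 (26.3%, 52.5% and 21.3%). The other genes with a chicken gap above 0 had reticulate scale between in 28.2%, below both in 63.8% and above both in 8.02%, and claw in 19.8%, 66.0% and 14.2%. The lowest chicken group mean was that of claw in 34 members (42.5%), of scutate scale in 31 (38.8%) and of reticulate scale in 15 (18.8%). In the other genes the same shares were 52.4%, 16.2% and 31.5%. The other genes were again not matched to the members in gap size.

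Members differed in how single emu libraries behaved. The emu claw library was at least 2-fold above every other emu library in 7 members (8.75%), where 1.37% of the 5175 genes were, and at least 2-fold below every other one in 5 (6.25%), where 2.98% were. Rank 10 was in the first set, with 120.0 TPM in emu claw and 18.5 to 40.6 TPM in the other emu libraries. The emu reticulate scale library was at least 2-fold above all others in 1 of the 80 members and in 44 of the 5175 genes. That member was rank 11, with 422 TPM there and 19.6 to 65.5 TPM in the others. The same library was at least 2-fold below all others in 2 of the 80 members and in 21 of the 5175 genes. These appendages have 1 emu library each, so the values have no replicate check. The other emu libraries include those that selected the members, and the 5175 genes were not chosen for a difference between emu appendages. The shares are therefore descriptions of a selected set and were not tested.

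The species were then compared in reticulate scale and claw, the tissues that the selection did not use. This comparison asks whether members differed between the birds outside feather and scutate scale. The fit, made with limma (a linear model with a shared estimate of variance), held species and appendage as terms over 6 libraries and tested the 7229 genes that reached 1 TPM in 2 or more of them. It included 79 members; rank 1 was too low to be tested. At a Benjamini-Hochberg adjusted p under 0.05, emu levels were called higher in 29 members (36.7%), where 28.4% of all genes were called higher, and lower in 5 (6.33%), where 16.8% were called lower. The median difference, emu minus chicken, was 0.54 over the members and 0.21 over all tested genes.

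Emu was above chicken in 52 of the 79 members and below it in 27, with differences from -2.17 to 4.35, and 58.7% of all tested genes were above 0. The overall tilt toward emu depended on scaling. After median-ratio scaling the median of all tested genes moved to -0.02 and that of the members to 0.33. Calls in the members then numbered 24 higher and 8 lower, against 1611 and 1635 over all genes. Members thus had a higher share of upward calls than all genes with and without rescaling. It was 85.3% against 62.8% as deposited and 75% against 49.6% after rescaling. The selection set a TPM minimum in chicken feather and emu scutate scale only, and the tested genes met no such filter. In scutate scale the members were already tilted toward emu, with a median difference of 1.24 against 0.02 over the genes that met the minimum. The excess was not compared with genes selected in a like way, so these calls describe a selected set. These calls pool the 2 tissues, which were not alike. In claw every emu value was above the chicken values in 60% of the members and 58.49% of the 5175 genes. It was below them in 25% and 27.96%. In reticulate scale the shares were 65% and 50.2% above, and 31.25% and 40.77% below. By these shares the members were close to the other genes in claw. The sizes of the claw difference were less alike on the emu side. Its upper quartile was 2.09 over the members and 0.998 over the 5175 genes, with lower quartiles of -0.25 and -0.22.

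The 2 members with the largest called differences toward emu were ranks 28 and 43. Rank 28 (ENSGALG00000006341) had 96.99 TPM in emu reticulate scale and 82.5 TPM in emu claw. In the chicken it had 9.71 and 8.47 TPM in reticulate scale and 0.767 and 1.16 TPM in claw. All emu values were above all chicken ones, and the log2 difference was 4.35 with a standard error of 0.49 (limma, adjusted p = 0.00153). Rank 43 (ENSGALG00000002421) had 269 and 227 TPM in emu reticulate scale and claw. Chicken reticulate scale had 18.8 and 16.4 TPM and chicken claw 12.3 and 9.94 TPM of it. The groups did not overlap here either, and the log2 difference was 4.05 with a standard error of 0.19 (limma, adjusted p = 8.03e-05).

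In feather the order of the species for rank 43 was the opposite, with 169 and 192 TPM in the chicken and 70.8 and 78.4 TPM in the emu. Chicken feather thus stood apart from the other chicken appendages, in which this gene did not exceed 21.8 TPM, while the emu carried it at 70.8 TPM or more in every library. Rank 28 had 18.7 and 19.0 TPM in chicken feather and 28.4 and 20.9 TPM in emu feather, with both emu values above both chicken values.

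Toward chicken, the largest called differences were those of ranks 7 and 77. Rank 7 had 221 and 249 TPM in chicken reticulate scale and 177 and 281 TPM in chicken claw. It had 94.4 TPM in emu reticulate scale and 57.7 TPM in emu claw, below every chicken value. The log2 difference was -1.62 with a standard error of 0.24 (limma, adjusted p = 0.00382). Rank 77 (ENSGALG00000016359) had 21.2 and 23.9 TPM in chicken reticulate scale and 16.4 and 19.8 TPM in chicken claw. Its emu levels were 8.41 and 6.76 TPM in reticulate scale and claw, again with no overlap. The log2 difference was -1.31 with a standard error of 0.21 (limma, adjusted p = 0.00475).

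Across the 4 appendages the median difference between the birds (emu minus chicken) moved from -0.68 in feather to 1.24 in scutate scale, a rise that the selection requires, although it sets the sign in neither tissue. In reticulate scale it was 0.67 and in claw 0.55. Over all genes that met the minimum the same medians were 0.02, 0.02, 0.10 and 0.37. The members' reticulate scale and claw medians thus fell between their feather and scutate scale medians. The medians of all genes in these tissues, 0.10 and 0.37, lay between the same limits, so this position is not particular to the members. Median levels of the members were 16.1 TPM in chicken reticulate scale and 13.6 TPM in chicken claw, and 26.6 and 25.3 TPM in the same emu tissues.

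**Figure D4:**
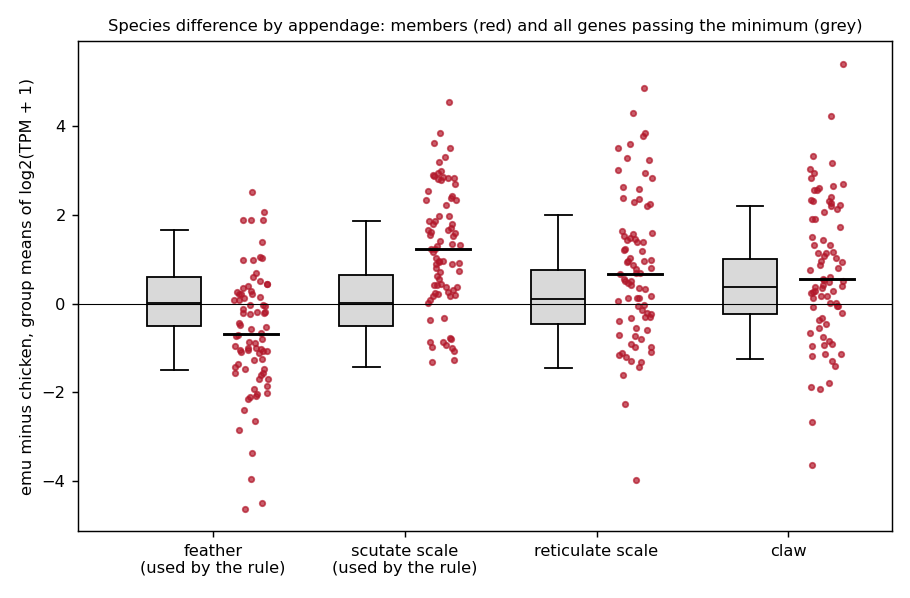
Difference between emu and chicken group means of log2(TPM + 1) in each appendage. Grey boxes are the 5175 genes that met the minimum (box, quartiles; whiskers, 5th to 95th percentile), red points the 80 members, and black bars the members' medians, -0.68, 1.24, 0.67 and 0.55 from left to right. Feather and scutate scale were used to select the members; emu reticulate scale and claw have 1 library each.

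Chicken reticulate scale and chicken claw were compared with 4 group means over the same 6 libraries, so that the spread came from the chicken replicates. Reticulate scale was called higher in 12 members (15.2%), where 14.4% of all genes were, and lower in 6 (7.59%), where 4.59% were. The share called higher was near the background. The median difference, reticulate scale minus claw, was 0.07 over the members and 0.28 over all tested genes. After median-ratio scaling, which raised the chicken claw values, the calls were 7 higher and 9 lower in the members and 478 and 585 over all genes, so the direction of the split is set by the scaling. With either chicken reticulate scale library left out, all calls of this contrast were lost in limma. That group then had no replicate, and the spread came from the chicken claw pair alone. Calls remained with either chicken claw library left out, when the spread came from the reticulate scale pair. Why these fits differed was not tested, and they are not used to compare calls between the members and all genes. With either chicken reticulate scale library left out, the differences themselves stayed near their size. Rank 14 (ENSGALG00000016394) had 2.50 and 2.73 against 2.62, and rank 12 (ENSGALG00000006583) had -2.40 and -2.44 against -2.42.

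Toward reticulate scale, the 2 largest called differences were those of ranks 14 and 15. Rank 14 (ENSGALG00000016394) had 66.0 and 55.8 TPM in chicken reticulate scale and 9.11 and 9.01 TPM in chicken claw. Reticulate scale was below feather, at 84.7 and 102.6 TPM, and claw was near scutate scale, at 10.9 and 14.2 TPM. The log2 difference between reticulate scale and claw was 2.62 with a standard error of 0.15 (limma, adjusted p = 0.0226). The emu showed less contrast for this gene, with 81.7 TPM in reticulate scale and 62.7 TPM in claw.

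Rank 15 (ENSGALG00000006045) had 11.2 and 15.4 TPM in chicken reticulate scale and 1.07 and 1.69 TPM in chicken claw. Both tissues were below scutate scale, at 29.1 and 31.2 TPM, and feather, at 57.6 and 51.0 TPM. The log2 difference was 2.58 with a standard error of 0.28 (limma, adjusted p = 0.0239). In the emu the 2 tissues had 6.54 and 7.88 TPM, both below emu feather and emu scutate scale, where scutate scale had 36.3 and 35.3 TPM.

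Toward claw, the largest called differences were those of ranks 21 and 12. Rank 21 (ENSGALG00000000619) had 2.70 and 0.555 TPM in chicken reticulate scale and 30.6 and 15.5 TPM in chicken claw. The log2 difference was -3.25 with a standard error of 0.58 (limma, adjusted p = 0.0377), and this call was also lost without the first chicken claw library (adjusted p = 0.0681) and with all genes above 0 tested (adjusted p = 0.0710). Its emu values were ordered the other way, with 32.3 TPM in reticulate scale and 15.7 TPM in claw. Rank 12 (ENSGALG00000006583) had 4.29 and 4.44 TPM in chicken reticulate scale and 24.7 and 31.1 TPM in chicken claw, a log2 difference of -2.42 with a standard error of 0.21 (limma, adjusted p = 0.0232). The emu again had the higher value in reticulate scale, 14.1 TPM against 6.73 TPM in claw.

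In the emu, with 1 library of each, reticulate scale was at least 2-fold above claw in 14 of 79 members (17.7%), where 11.1% of all tested genes were. Claw was at least 2-fold above reticulate scale in 13 (16.5%), where 6.24% were. The members were selected for a difference between emu feather and scutate scale and the tested genes were not, so these shares are descriptions. The sign of the difference between reticulate scale and claw was the same in both species in 41 members (51.9%). It was the same in 60.6% of all tested genes. A test of the difference between the species in this contrast called 0 genes (limma, adjusted p under 0.05; 0% of those tested). At an unadjusted p under 0.05 it held 1556 of 7229 genes and 31 of 79 members. This fit thus did not show that the opposite orders of ranks 12 and 21 differ between the birds. Nor did it show that they are alike, since the test had low power. In simulated data it recovered 31% of changes of 2 on the log2 scale. The species contrast and the chicken contrast recovered 98% and 96.5% of 200 changed genes, with 11 and 15 false calls. These shares hold for the simulated settings and are not rates for the measured data. There, rank 5 at -2.17 in the species contrast was not called (limma, adjusted p = 0.0678). Nor was rank 24 at -3.84 in the chicken contrast (limma, adjusted p = 0.0685). Ranks 28 and 43 in the former and 14 and 15 in the latter, with differences above 2, were called. For the difference between the species in reticulate scale against claw, a fit to all 14 libraries called 1536 of 7563 genes and 36 of 80 members. The spread in that fit comes also from the libraries that selected the members.

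**Figure D5:**
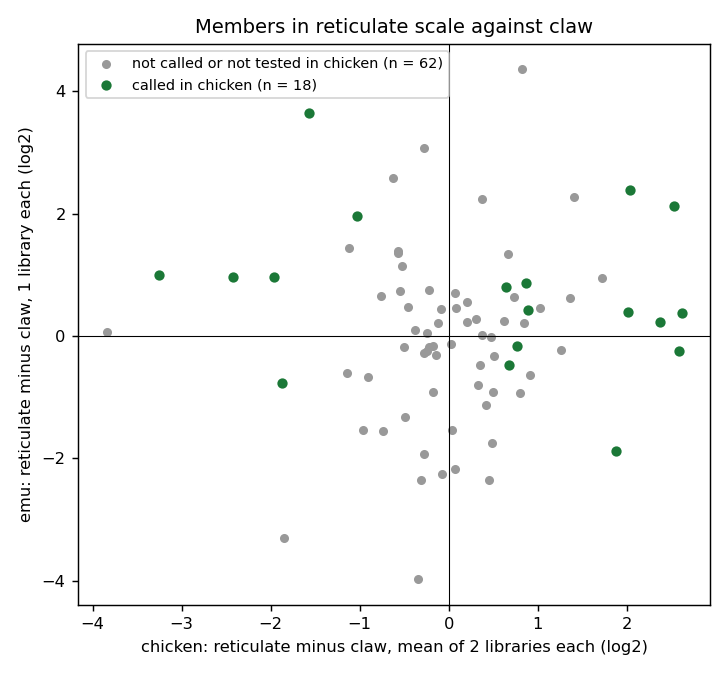
Difference between reticulate scale and claw in the chicken (x axis, 2 libraries each) and the emu (y axis, 1 library each), in log2(TPM + 1), for the 80 members. Green points are the 18 members called in the chicken by limma. Points lie in all 4 quadrants, and 41 of the 79 tested members have the same sign in both species.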

How the data were processed

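Per the submitters' processing notes, reads were handled with CASAVA, TopHat2 2.0.6 and HTSeq 0.5.3p9; the genome build, annotation and assignment of emu genes to chicken identifiers are not given in the sources used here. The authors deposited 1 table of 8751 genes in 14 libraries, taken here to hold square roots of TPM, since the squares of each emu column sum to 550000; values were squared and used as log2(TPM + 1). TPM keeps no depth, so no count test was run, and no column of another series was present. Samples were grouped by their titles, and series text calls them biological replicates; if they share embryos, the p-values measure only the spread between these libraries.

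The members and all gene lists were chosen with earlier results of these data known. Contrasts of feather with scutate scale chose the members and are given without a test. Reticulate scale and claw libraries (6) were tested with limma 3.58.1 in R 4.3.3 (eBayes with trend), on genes reaching 1 TPM in 2 or more libraries, with Benjamini-Hochberg adjustment over all 7229 genes and a threshold of 0.05. Each emu group in this fit has 1 library and is assumed to vary like the chicken groups. The fits were checked on simulated data, where the interaction test recovered far fewer of the changes than the other contrasts did. Described by identifier were ranks 1 and 2 and the 2 members with the largest called difference in each direction of a contrast; other members were singled out by rank, some after their values were seen. Alternatives were another pseudocount, filter, scaling, set of libraries, replicate block and leaving out each library. Figures were drawn with matplotlib 3.10.9.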

Additional observations from a re-analysis of the deposited data

How the results depend on the processing

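Membership was recomputed with other selection settings. Of the 80 members, 42 stayed among the first 80 without a TPM minimum, 52 with gaps taken between group means, and 50 to 72 with 1 of the 8 libraries left out. The emu against chicken comparison called 3274 genes and 34 members. It called 5107 and 54 with all 14 libraries, 2171 and 20 with a replicate block, and 2317 to 2950 genes and 23 to 37 members with 1 library left out. Chicken reticulate scale against claw called 1373 genes and 18 members. It called 559 and 9 with all genes above 0, 826 genes after quantile scaling, 3495 and 39 with all 14 libraries, and 0 and 0 with a replicate block (limma; 2608 genes and 35 members at an unadjusted p under 0.05). With 1 library left out it called 0 to 1740 genes and 0 to 23 members. Without chicken reticulate scale replicate 1 or 2, 1342 and 1560 genes stayed under an unadjusted p of 0.05. The interaction of species with that contrast called 0 genes and members, 148 and 3 with all genes above 0, 35 and 2 at a TPM of at least 5, 129 and 6 on square-root values, 1536 and 36 with all 14 libraries, and 0 to 1 gene with 1 library left out. The cause of these shifts was not tested. The fits to all 14 libraries tested 7563 genes and 80 members. They took part of their spread from the libraries that selected the members, so their member counts are no independent check. Same-numbered chicken reticulate scale and claw replicates had a correlation of 0.0481 in their deviations, so the numbers were not shown to pair the samples. Among the 8 tested members given by identifier, 4 from each contrast, no direction reversed. The species calls held in every alternative, and the 4 chicken calls were lost with the replicate block and without either chicken reticulate scale library, and that of rank 21 also with all genes above 0 and without the first chicken claw library. Rescaling to a common total was chosen after seeing the data. TPM keeps no read depth, so counting error could not be assessed.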

Other observations

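The opposite reversal, with scutate scale above feather in the chicken and feather above scutate scale in the emu, was met by 336 of 5083 genes under the same rule, against 317 of 5175 for the direction described here. The counts were near each other but the sizes were not. In the opposite direction 0 genes had both gaps at least 2-fold and 4 at least 1.5-fold, against 6 and 23, and the largest smaller gap was 0.77 against 3.66. Feather was above scutate scale in every library of both birds in 847 of 5199 genes, and scutate scale above feather in 454 of 5091. These are descriptions with no test.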
